A study of Mus musculus with 6 samples.

Results

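The ErbB receptors and the ligands of the EGF family were examined in AML12 cells that over-expressed Zac1. The set holds 10 genes of the 49585 in the count table: the 4 receptor genes Egfr, Erbb2, Erbb3 and Erbb4, and the 6 ligand genes Hbegf, Areg, Ereg, Tgfa, Btc and Nrg1. They were selected on the log2 fold change of Erbb3 and the library values of its family in this same contrast. Their levels in Zac1 against EGFP libraries are therefore a description, and which of them pass a threshold in that contrast supports nothing. Messenger RNA was sequenced from 3 libraries transfected with a construct carrying the Zac1 open reading frame and from 3 transfected with a construct carrying that of EGFP, a fluorescent protein that served as the control. All 6 libraries came from AML12, a mouse hepatocyte line, so that each group rests on a single line, and were collected at 24 h. The Plagl1 gene, which is imprinted, encodes Zac1, a DNA-binding protein with zinc fingers.

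ErbB receptors are cell-surface tyrosine kinases that signal as pairs. A ligand bound to Egfr, Erbb3 or Erbb4 opens the receptor so that it can pair, whereas Erbb2 has no known ligand and serves as the preferred partner of the others. Erbb3 has very weak kinase activity of its own, signals through its partners and, once phosphorylated, recruits PI3K. Tgfa, Areg, Hbegf, Ereg and Btc bind Egfr, Hbegf, Ereg and Btc also bind Erbb4, and Nrg1 binds Erbb3 and Erbb4. The ligands are made as membrane-bound precursors that sheddases release, and in liver Egfr signalling is known for its part in hepatocyte growth and regeneration. AML12 cells were established from a mouse that carried a human TGFA transgene. Whether transcripts of that transgene were counted under mouse Tgfa is not given in the sources used here.

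Library totals were 16104498 to 18302538 reads in Zac1 and 14801240 to 15145092 reads in EGFP. Plagl1 was read 106033, 135108 and 148382 times in the Zac1 libraries, against 39, 79 and 67 times in the EGFP libraries. On the second principal component, with 18.6% of the variance, Zac1 replicate 4 and EGFP replicate 1 (12.3 and 12.6) stood apart from the other 4 libraries (-9.34 to -3.00). Hepatocyte markers summed to 1491 to 1758 CPM (reads scaled to a common library size) in Zac1 and 1624 to 1873 CPM in EGFP. Most of this was Apob, the transcription factor gene Hnf4a averaged 206 CPM in Zac1 and 201 CPM in EGFP, Cps1 had 9 reads in all Zac1 and 8 in all EGFP libraries, and Apoa2 had 0. The 7 cholangiocyte markers summed to 760 to 791 CPM in Zac1 and 785 to 825 CPM in EGFP. Spp1 and Krt19 made up most of this, and Epcam had 3 reads in all Zac1 and 1 in all EGFP libraries. The CPM ranges of Spp1 did not overlap, with a lower mean in Zac1 (275 CPM, against 310 CPM in EGFP). Those of Sox9 did not overlap either, with a higher mean in Zac1 (94.8 CPM, against 87.6 CPM in EGFP). The other cholangiocyte markers overlapped. The labels do not name separate cultures within a group. The p-values are therefore set against the scatter of these libraries alone, and that scatter could be technical.

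Of the 10 genes, 9 had a mean of at least 10 reads and were tested with the other genes, and Erbb4 was below that level. In the fit over all 12130 genes, 2 of the 9 passed an adjusted p of 0.05 as higher in Zac1 (Erbb3 and Hbegf), where 3.12% of all genes did, and 0 passed as lower, where 0.668% did (3.78% in either direction). CPM values of the 2 groups did not overlap for the same 2 genes, both higher in Zac1, as held for 11.9% of all genes, and overlapped for the other 7 (8.75% of all genes were apart as lower). For those 7 the log2 fold change lay between -0.12 and 0.11. The median over the 9 was 0.03, and that over all tested genes was -0.002. Since the genes were chosen with this contrast known, the counts describe them only.

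**Figure D1:**
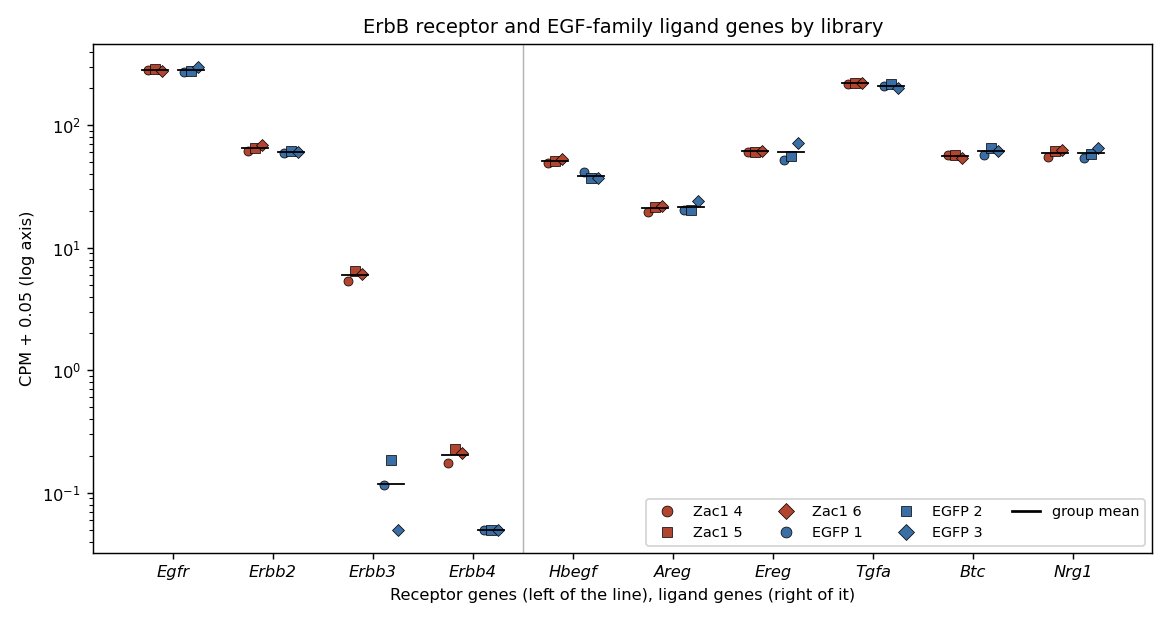
Level of each receptor and ligand gene in each library, as CPM plus 0.05 on a log axis, with Zac1 libraries left of EGFP libraries and a black line at each group mean. Erbb3 sits at 5.29 to 6.40 CPM in Zac1 and at 0 to 0.134 CPM in EGFP, Hbegf is apart by a small step, and the other genes with a mean of at least 10 reads overlap.

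The receptor profile of these cells was that of an Egfr and Erbb2 line, with a low level of Erbb3 in the Zac1 libraries. Egfr, the receptor of EGF and of Tgfa, had 281, 289 and 278 CPM in the Zac1 libraries and 273, 280 and 299 CPM in the EGFP libraries. These ranges overlapped and the log2 fold change was -0.01 (SE 0.05), with a 95% interval of -0.11 to 0.10. Erbb2, the receptor without a known ligand, had 61.2, 65.2 and 68.8 CPM in the Zac1 libraries and 58.8, 61.4 and 60.8 CPM in the EGFP libraries. Zac1 replicate 4 lay below the highest EGFP library, and the log2 fold change was 0.11 (SE 0.06, 95% interval -0.03 to 0.24). Without the GC-related part of the fold changes, by a least-squares curve, it was -0.06. Mien1 overlaps Erbb2 on the opposite strand, and its reads numbered 1553 in all Zac1 and 1267 in all EGFP libraries.

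Erbb3 (ENSMUSG00000018166, chromosome 10, 128567523 to 128589652, minus strand in GENCODE M21, build GRCm38) was read 85, 109 and 111 times in the Zac1 libraries and 1, 2 and 0 times in the EGFP libraries. All 3 Zac1 libraries were well above all 3 EGFP libraries, and 1 EGFP library held no read. Its level was 5.91 ± 0.565 CPM in Zac1 and 0.0669 ± 0.0671 CPM in EGFP (SD, n = 3 each). The summed reads, 305 in Zac1 and 3 in EGFP, gave a depth-corrected ratio of 88.3 with an exact 95% interval of 29.9 to 431 (Clopper-Pearson, counting error only). A fitted value for a gene this near 0 in EGFP depends on the prior count: the log2 fold change was 6.31 with the default prior and 4.98 with a prior of 2. Erbb3 met the count minimum only through the Zac1 libraries. Per kilobase of exon, it ranked 10360 in Zac1 among the tested genes that had an exon length, at percentile 14.5.

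Erbb4, the other neuregulin receptor, had 2, 3 and 3 reads in the Zac1 libraries and 0 in each EGFP library. With 3 reads set in place of 0 for the EGFP group, and the 8 Zac1 reads taken as exact, its depth-corrected ratio was 2.32. In bulk RNA, a few cells with much Erbb3 or Erbb4 and many cells with little cannot be told apart.

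Schwann cells and other glia are a known source of Erbb3, so their markers were counted beside it. Sox10 had 1 read in all Zac1 and 0 in all EGFP libraries, and Foxd3 had 0 in all libraries. The 7 glial markers, 6 of them with a read, summed to 59.4 to 64.7 CPM in Zac1 and 57.2 to 60.2 CPM in EGFP, nearly all of it from Mbp, which averaged 60.4 CPM in Zac1 and 57.3 CPM in EGFP. Of the 8 stellate cell and fibroblast markers 5 had a read, and their sum was 0.311 to 0.939 CPM in Zac1 and 0 to 0.0675 CPM in EGFP. Des had 13 reads in all Zac1 and 2 in all EGFP libraries. Pdgfra had 8 and 0, Pdgfrb 6 and 0, Rgs5 2 and 0, and Acta2 1 and 0. Dcn, Lum and Lrat were at 0 in all libraries. The 6 endothelial markers, 5 of them with a read and Lyve1 at 0, summed to 0.747 to 1.25 CPM in Zac1 and 0.537 to 0.877 CPM in EGFP. Of these, Pecam1 was apart as higher, with 9, 13 and 16 reads in the Zac1 libraries and 7, 7 and 3 in the EGFP libraries. The 6 macrophage and leukocyte markers, 5 of them with a read and Clec4f at 0, summed to 45.7 to 52.0 CPM in Zac1 and 49.7 to 54.0 CPM in EGFP, nearly all of it from Cd14 (46.7 CPM on average in Zac1, 49.3 CPM in EGFP). Csf1r, a macrophage receptor gene, went the other way, with 7, 4 and 19 reads in the Zac1 libraries and 0 in each EGFP library. With 3 reads set for the EGFP group and the Zac1 reads taken as exact, the ratio of Csf1r was 8.69. The stellate sum was higher in each Zac1 library than in any EGFP library. The part of these markers in the Erbb3 result was not tested.

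The receptor balance was set per length, as CPM divided by the kilobases of merged exons (RPKM). Egfr was at 24.9 ± 0.486 RPKM in Zac1 and 25.1 ± 1.17 RPKM in EGFP. Erbb2 followed at 12.5 ± 0.727 RPKM in Zac1 and 11.6 ± 0.258 RPKM in EGFP, and Erbb3 at 0.982 ± 0.0938 RPKM in Zac1 and 0.0111 ± 0.0112 RPKM in EGFP (SD, n = 3 each). In the summed receptor RPKM, Egfr made up 66.2, 65.2 and 63.3% in the Zac1 libraries and 68.1, 67.7 and 69.3% in the EGFP libraries. Erbb3 made up 2.35, 2.72 and 2.59% in the Zac1 libraries and 0.0312, 0.0611 and 0% in the EGFP libraries. The share of Egfr was lower in each Zac1 library than in any EGFP library, while that of Erbb2 overlapped (31.4 to 34.1% in Zac1, 30.7 to 32.3% in EGFP). The sum under these shares includes Erbb3, on which the set was selected. Without Erbb3, the ratio of Erbb2 to Egfr RPKM was 0.474 to 0.538 in Zac1 and 0.443 to 0.477 in EGFP, and the groups overlapped.

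The order of the receptors was Egfr, Erbb2, Erbb3 and Erbb4 in all 3 Zac1 libraries, with each step larger than the spread between libraries. Within a Zac1 library there were 24.0 to 28.2 units of Egfr RPKM and 11.8 to 13.4 units of Erbb2 RPKM for each unit of Erbb3 RPKM. The summed receptor RPKM was 38.4 ± 0.871 in Zac1 and 36.6 ± 1.32 in EGFP, and the groups overlapped. Transcript shares say nothing of receptor protein or of pairing at the membrane.

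**Figure D2:**
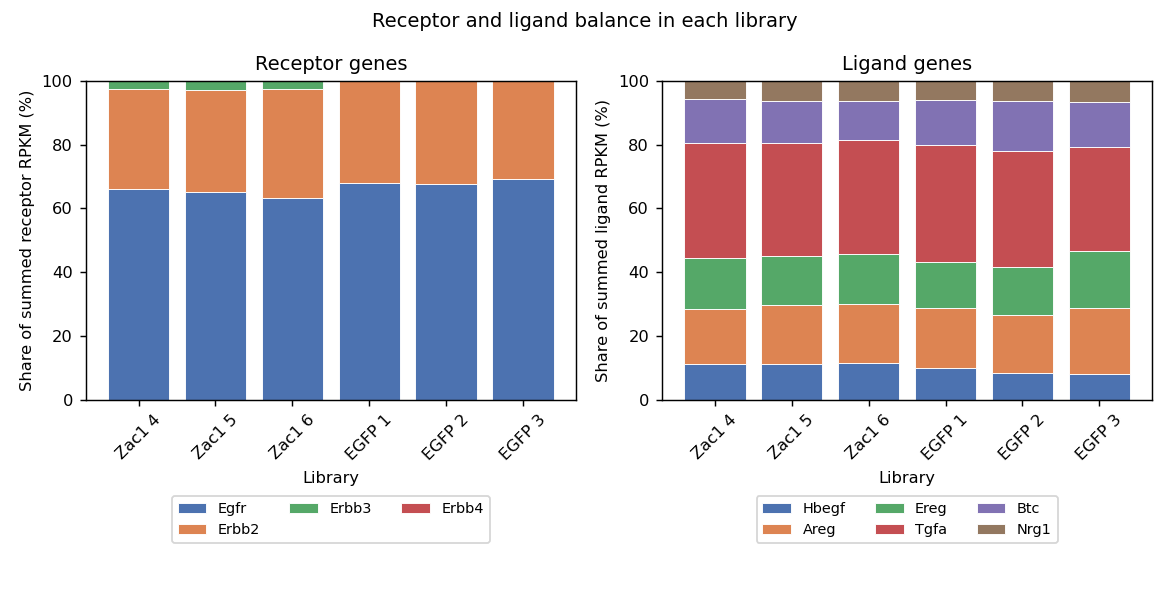
Share of each gene in the summed receptor RPKM (left) and in the summed ligand RPKM (right), as stacked bars in percent, with the 3 Zac1 libraries left of the 3 EGFP libraries. Erbb3 forms a band of 2.35 to 2.72% at the top of the Zac1 receptor bars, and the Hbegf band is 11.0 to 11.3% in Zac1 and at most 9.79% in EGFP.

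The cells made transcripts of all 6 ligands in both groups. Tgfa, a ligand of Egfr, was the most abundant per length, at 33.9 ± 0.559 RPKM in Zac1 and 32.3 ± 1.06 RPKM in EGFP. It had 216, 220 and 223 CPM in the Zac1 libraries and 210, 216 and 203 CPM in the EGFP libraries. Zac1 replicate 4 lay below EGFP replicate 2, so the groups overlapped, and the log2 fold change was 0.07 (SE 0.05, 95% interval -0.04 to 0.17). As a level per length, Tgfa ranked 1546 of the tested genes in Zac1 and 1647 in EGFP, above Egfr (2187 in Zac1, 2182 in EGFP).

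Hbegf, heparin-binding EGF-like growth factor, was the ligand whose groups stood apart. It was read 789, 874 and 971 times in the Zac1 libraries and 628, 556 and 549 times in the EGFP libraries, or 49.1, 51.3 and 52.8 CPM in Zac1 against 41.8, 37.3 and 37.1 CPM in EGFP. Every Zac1 library lay above every EGFP library, and the nearest pair was Zac1 replicate 4 and EGFP replicate 1. Its log2 fold change was 0.40 (SE 0.07, 95% interval 0.25 to 0.55), or 1.32-fold. Its share of the summed ligand RPKM was 11.1 ± 0.159% in Zac1 and 8.75 ± 0.929% in EGFP. There were 3.21 ± 0.0638 units of Tgfa RPKM for each unit of Hbegf RPKM in Zac1 and 4.05 ± 0.286 units in EGFP (SD, n = 3 each).

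**Figure D3:**
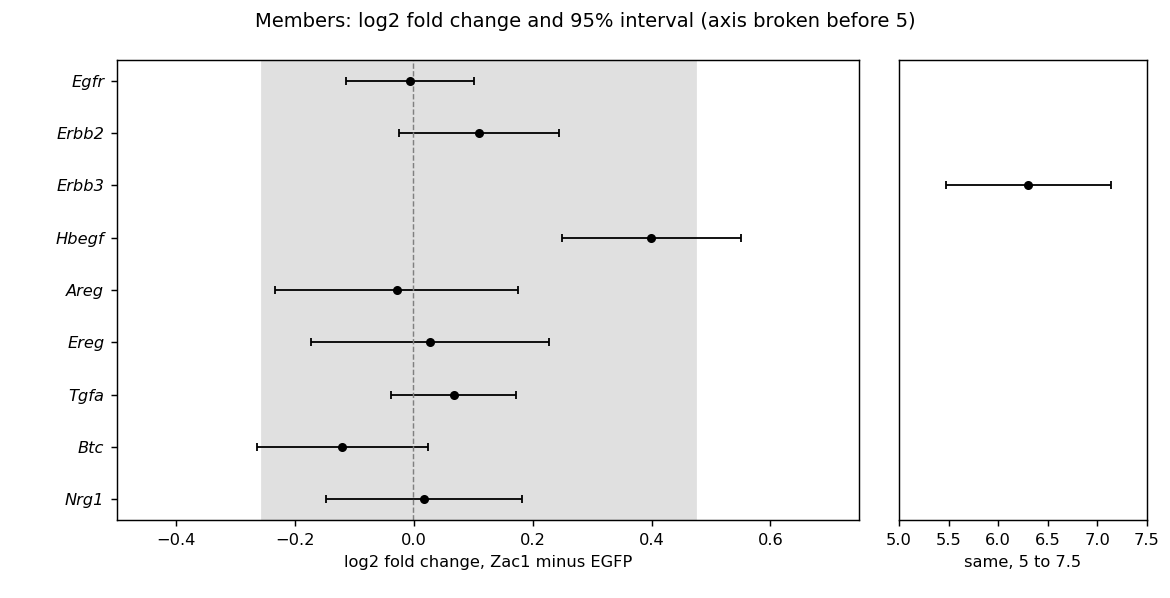
Log2 fold change, Zac1 minus EGFP, of the 9 genes with a mean of at least 10 reads, with 95% intervals from the fit over all genes. The grey band holds the range from the 5th to the 95th percentile of all tested genes (-0.26 to 0.48), the dashed line is their median, and the axis is broken before 5 to show Erbb3 at 6.31.

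The 3 ligand genes Ereg, Areg and Btc lie side by side on chromosome 5, with Epgn, and none of them was apart between the groups. Ereg, epiregulin, had 61.0, 60.4 and 62.2 CPM in the Zac1 libraries and 52.4, 56.2 and 71.7 CPM in the EGFP libraries. The Zac1 values sat inside the EGFP range, whose width came from replicate 3, and the log2 fold change was 0.03 (SE 0.09, 95% interval -0.17 to 0.23). Areg, amphiregulin, lies 45953 bases from Ereg and had 19.4, 21.6 and 22.1 CPM in the Zac1 libraries and 20.4, 20.1 and 24.0 CPM in the EGFP libraries. Its log2 fold change was -0.03 (SE 0.10, 95% interval -0.23 to 0.17), and EGFP replicate 3 was again the highest of the 6. Btc, betacellulin, lies 208829 bases beyond Areg on the other strand and had 57.6, 57.2 and 53.8 CPM in the Zac1 libraries and 56.9, 65.3 and 61.1 CPM in the EGFP libraries. EGFP replicate 1 lay among the Zac1 libraries, and the log2 fold change of -0.12 (SE 0.07, 95% interval -0.27 to 0.02) was the lowest of the tested members.

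Nrg1, neuregulin 1, is the member that binds Erbb3. It had 55.1, 62.0 and 62.7 CPM in the Zac1 libraries and 54.2, 58.6 and 65.0 CPM in the EGFP libraries. The groups overlapped throughout, with a log2 fold change of 0.02 (SE 0.08, 95% interval -0.15 to 0.18). Per length, Nrg1 was at 5.79 ± 0.407 RPKM in Zac1, the group with Erbb3, and at 5.73 ± 0.526 RPKM in EGFP. Nrg1 was the ligand with the lowest level per length, and the counts do not tell its membrane-anchored from its other isoforms.

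The order of the ligands per length was Tgfa, Areg, Ereg, Btc, Hbegf and Nrg1 in both groups. Tgfa and Nrg1 were apart from their neighbours beyond the spread, whereas Areg and Ereg overlapped in EGFP, as did Ereg and Btc. Per length of the longest transcript instead of merged exons, Hbegf moved up to follow Tgfa in Zac1, with 14.3% of the ligand sum against 14.0% for Areg. With no length correction, Areg was the lowest, at 4.48% in Zac1 and 4.77% in EGFP, and Nrg1 took 12.8% in Zac1 and 13.1% in EGFP. The order below Tgfa, with the last place of Nrg1, therefore depends on the length used. The 5 ligands that bind Egfr summed to 89.0 ± 1.84 RPKM in Zac1 and 86.1 ± 3.22 RPKM in EGFP, and the groups overlapped. Of the 2 libraries that stood apart on the second principal component, Zac1 replicate 4 was the lowest of its group for 7 of the 10 members, and EGFP replicate 1 was the lowest, or tied at 0, for 6.

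Promoter sequences, from 250 bases before to 50 bases after the start, were matched in RefSeq (GRCm38.p6) for 6 of the 10 members: Egfr, Erbb2, Erbb4, Tgfa, Areg and Btc. Erbb3, Hbegf, Ereg and Nrg1 had no match. The letters GGGGCCCC, a site that Zac1 is known to bind and that reads the same on both strands, occurred in 0 of the 6, and in 1.08% of all 32851 promoters in that table. A GC box (GGGCGG on either strand) occurred in 3 of the 6, those of Egfr, Tgfa and Areg, and in 35.7% of all. The cAMP response element TGACGTCA (1.79% of all) and the TATA box TATAAA (13.6% of all), both searched on both strands, occurred in Areg alone among the 6. No 2 of these matches overlapped. The promoters of the most abundant receptor and ligand and that of Areg are shown 5′ to 3′ on the strand of the gene, with the matched letters in capitals. They lie at chr11:16751953-16752252 (plus strand), chr6:86194972-86195271 (plus strand) and chr5:91139349-91139648 (plus strand). A match is a string of letters and no measured binding.
Egfr: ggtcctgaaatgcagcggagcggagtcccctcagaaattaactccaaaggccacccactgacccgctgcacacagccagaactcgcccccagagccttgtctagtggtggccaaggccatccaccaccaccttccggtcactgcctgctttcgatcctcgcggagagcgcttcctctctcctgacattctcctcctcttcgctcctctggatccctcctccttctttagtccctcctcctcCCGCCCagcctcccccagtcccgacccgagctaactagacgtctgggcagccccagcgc
Tgfa: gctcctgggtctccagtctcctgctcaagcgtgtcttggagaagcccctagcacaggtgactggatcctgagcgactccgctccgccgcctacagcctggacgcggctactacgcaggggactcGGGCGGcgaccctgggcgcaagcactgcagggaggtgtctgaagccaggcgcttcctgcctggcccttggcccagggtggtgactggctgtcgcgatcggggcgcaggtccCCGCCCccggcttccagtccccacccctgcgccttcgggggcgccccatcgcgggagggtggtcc
Areg: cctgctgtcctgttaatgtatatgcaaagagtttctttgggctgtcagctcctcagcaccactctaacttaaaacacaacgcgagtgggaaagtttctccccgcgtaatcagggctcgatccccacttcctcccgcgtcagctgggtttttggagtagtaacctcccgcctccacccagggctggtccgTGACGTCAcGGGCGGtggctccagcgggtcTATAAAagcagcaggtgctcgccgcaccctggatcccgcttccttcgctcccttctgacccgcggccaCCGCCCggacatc

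Of the 3 nearest protein-coding genes on each side of Erbb3, 5 were tested and 0 passed, where 3.78% of all tested genes did. Pa2g4, whose protein is known as an ErbB3-binding protein, lies 1536 bases from Erbb3 and was at 354 ± 3.07 CPM in Zac1 and 341 ± 5.58 CPM in EGFP (SD, n = 3 each). Its log2 fold change was 0.05 (SE 0.04, edgeR adjusted p = 0.606). The CPM groups of Pa2g4 were apart as higher in Zac1 (351, 356 and 356 CPM against 344, 345 and 335 CPM in EGFP), as held for 11.9% of all tested genes. Rps26, the nearest on the other side at 34882 bases, had a log2 fold change of 0.01 (SE 0.06, edgeR adjusted p = 0.963). Rpl41, Zc3h10 and Suox did not pass either (edgeR adjusted p from 0.347 to 0.763). Ikzf4, below the count minimum, had 5, 7 and 8 reads in the Zac1 libraries and 1, 1 and 3 in the EGFP libraries.

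**Figure D4:**
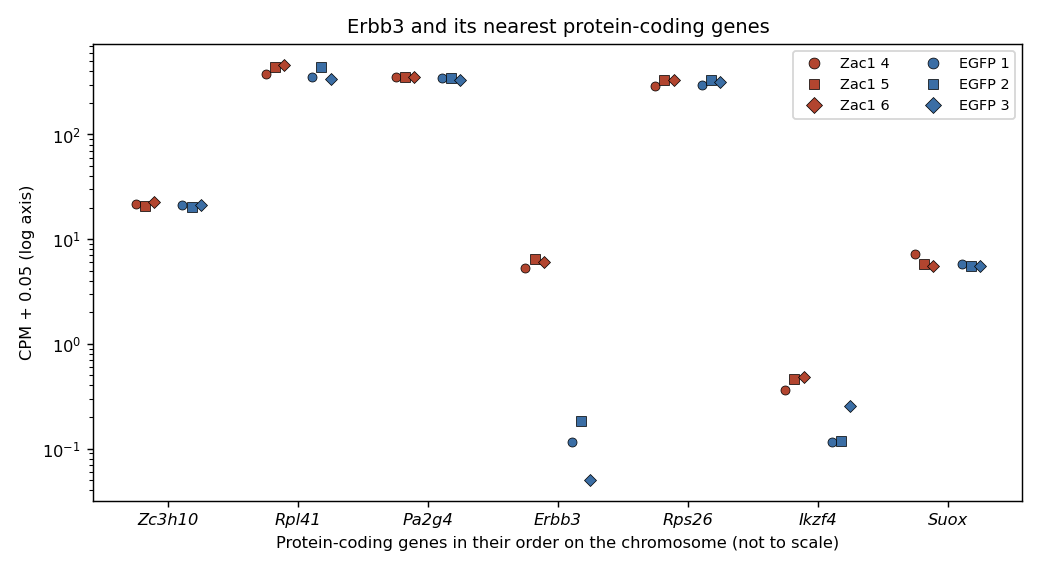
Level of Erbb3 and of the 3 nearest protein-coding genes on each side in each library, as CPM plus 0.05 on a log axis, with Zac1 libraries left of EGFP libraries. Erbb3 is apart by far more than any neighbour, and Ikzf4 has 20 reads in all Zac1 and 5 in all EGFP libraries.

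Genes were also picked for a profile like that of Erbb3, so their low level in EGFP and higher level in Zac1 follow from the choice. The picked genes had 2.49 to 10.5 CPM in Zac1 and 0 to 0.405 CPM in EGFP. The 5 nearest by Euclidean distance of log2(CPM + 0.5) over the 6 libraries were Wnt6 (distance 1.18), Casz1 (1.21), Rnf208 (1.33), Nptx1 (1.33) and Adam11 (1.39). Wnt6 held 189 reads in all Zac1 and 2 in all EGFP libraries, and Nptx1 held 523 in Zac1 and 2 in EGFP. For Hbegf the 5 nearest were Rhpn2 (0.20), Itpripl1 (0.24), Palld (0.26), Srf (0.26) and Cramp1l (0.29), each at 44.5 to 51.4 CPM in Zac1 and 33.9 to 45.4 CPM in EGFP. The distance weighs level as well as pattern.

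The rest of the pathway was read from 7 lists that hold no member: 115 genes, 106 of them tested. In all, 6 passed as higher in Zac1 and 0 as lower, where 3.12% and 0.668% of all tested genes did. The CPM groups were apart for 33 of the 106, 23 higher and 10 lower, where 20.6% of all genes were. Leaving out EGFP replicate 3, Zac1 replicate 5 or Zac1 replicate 6 gave 1 higher call, and leaving out Zac1 replicate 4 raised the number to 12 higher and 3 lower.

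Other ligands of the family were scarce. Egf, the founding ligand, was the only one tested, with 17, 9 and 21 reads in the Zac1 libraries and 13, 14 and 22 in the EGFP libraries (log2 fold change -0.26, SE 0.36, edgeR adjusted p = 0.785). Nrg2, which binds Erbb3 and Erbb4, had 5, 14 and 6 reads in the Zac1 libraries and 0, 1 and 0 in the EGFP libraries, a ratio of 21.7 (95% interval 3.56 to 892, counting error only). Epgn had 12 reads in all Zac1 and 4 in all EGFP libraries, Nrg4 had 20 in each group, and Nrg3 had 1 in Zac1 and 2 in EGFP.

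Of the sheddases and partners, 0 passed an adjusted p of 0.05 in edgeR. There were 10 tested sheddases and trafficking factors. Adam17, the main sheddase of several EGF-family ligands, had a log2 fold change of -0.001 (SE 0.07), named here for its role. Adam15 had 31.7, 30.0 and 35.2 CPM in the Zac1 libraries and 23.4, 26.0 and 27.8 CPM in the EGFP libraries, apart in every library (log2 fold change 0.33, SE 0.09, edgeR adjusted p = 0.0553). Adam15 passed without Zac1 replicate 4, at 0.0312, while without Zac1 replicate 6 the adjusted p was 0.256. It also passed with library totals without Plagl1 (0.0470), without a filter on low counts (0.00775) and with EGFP 1 and Zac1 4 both left out (0.0178). With least-squares GC offsets its log2 fold change was 0.13 (adjusted p = 0.363). Nrdc, nardilysin, which aids Hbegf shedding, was at -0.14 (SE 0.05, edgeR adjusted p = 0.137). Nrdc passed as lower with voom (0.0300), with least-squares GC offsets (0.0361) and with EGFP 1 and Zac1 4 both left out (0.0158). Of 10 tested partners and co-receptors, the heparan sulfate proteoglycan gene Sdc4 (0.16, edgeR adjusted p = 0.350) and Erbin, which binds Erbb2 (-0.10, edgeR adjusted p = 0.390), had the smallest p.

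Downstream of the receptors, 0 of 25 adaptor and RAS-ERK genes passed in edgeR. The kinase genes Rps6ka1 (log2 fold change 0.28, SE 0.09, adjusted p = 0.129) and Araf (-0.13, SE 0.06, adjusted p = 0.284) had the smallest p. Rps6ka1 passed without EGFP replicate 1, at 0.0469, and with EGFP 1 and Zac1 4 both left out, at 0.0111. The median of the list was 0.003. Of 18 PI3K-AKT and STAT genes, 1 rose and 0 fell, where 3.12% of all tested genes were called higher and 0.668% lower, so the count is near that of all genes. Their median was 0.001. The CPM groups were apart as higher for 3 of them and as lower for 4, where 11.9% and 8.75% of all tested genes were. Among the 4 was the PI3K gene Pik3ca (log2 fold change -0.18, SE 0.06, edgeR adjusted p = 0.117), named here for its role. Stat5a, a transcription factor of cytokine and growth factor signalling, had 18.1, 21.1 and 20.8 CPM in the Zac1 libraries and 14.8, 13.4 and 15.7 CPM in the EGFP libraries (log2 fold change 0.46, SE 0.10, edgeR adjusted p = 0.0204). Stat5a missed the threshold when either EGFP 2 or EGFP 3, or either of Zac1 5 and Zac1 6, was absent (adjusted p reaching 0.129) and with least-squares GC offsets (0.119).

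Among 21 negative regulators, 1 rose and 0 fell, again near the 3.12% and 0.668% of all tested genes, with a median of 0.04. The CPM groups were apart as higher for 5 of them and as lower for 1, where 11.9% and 8.75% of all tested genes were. Of the 21 fold changes 14 were above 0, against 49.5% of all tested genes. Lrig1, a membrane protein that promotes the breakdown of ErbB receptors, had 124, 130 and 128 CPM in the Zac1 libraries and 106, 109 and 108 CPM in the EGFP libraries (log2 fold change 0.25, SE 0.05, edgeR adjusted p = 0.0133). Lrig1 missed the threshold in the absence of EGFP 3 or of either Zac1 5 or Zac1 6 (adjusted p reaching 0.121) and with least-squares GC offsets (0.0884). Errfi1, a direct inhibitor of the Egfr kinase, was at 0.01 (SE 0.06), and Rnf41, a ligase that acts on Erbb3, was at 0.06 (SE 0.07); both are named here for their roles.

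**Figure D5:**
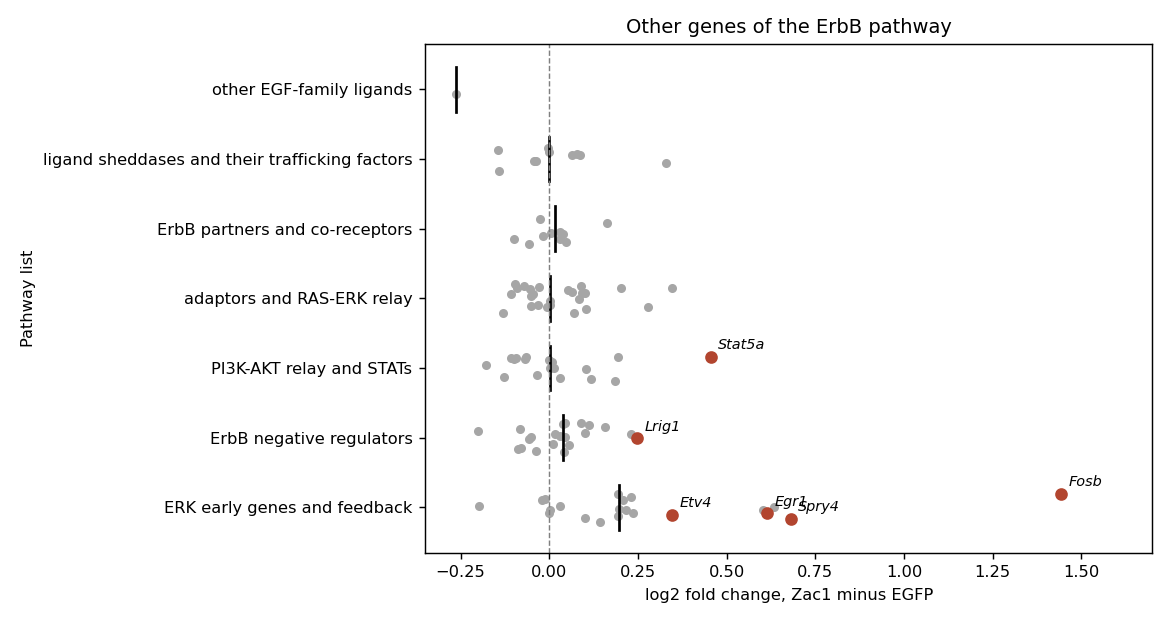
Log2 fold change, Zac1 minus EGFP, of each tested gene of the 7 pathway lists, with 1 point per gene, black bars at list medians and the 6 genes past the adjusted p of 0.05 in red. The list of ERK early genes and feedback has the highest median, 0.20, and 4 of the 6 red points.

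Early genes and feedback genes downstream of ERK, which other receptors also drive, included 4 rises and 0 falls among 21 tested, where 3.12% of all tested genes were called higher and 0.668% lower. Their median was 0.20, and 17 of the 21 fold changes were above 0, against 49.5% of all tested genes. The CPM groups were apart as higher for 11 of the 21 and as lower for 1, where 11.9% and 8.75% of all tested genes were. Fosb, an AP-1 subunit, had 6.78, 6.22 and 6.20 CPM in the Zac1 libraries and 2.06, 2.48 and 2.50 CPM in the EGFP libraries (log2 fold change 1.44, SE 0.17, edgeR adjusted p = 0.000211). The call on Fosb held with any 1 library left out. Spry4, an inhibitor of receptor tyrosine kinase signalling, had 5.29, 6.22 and 5.27 CPM in the Zac1 libraries and 3.33, 3.42 and 3.71 CPM in the EGFP libraries (0.68, SE 0.16, adjusted p = 0.0274).

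Etv4, an ETS factor, had a log2 fold change of 0.35 (SE 0.08, edgeR adjusted p = 0.0274) and the zinc-finger factor gene Egr1 one of 0.61 (SE 0.15, adjusted p = 0.0304). Spry4 missed the threshold in the absence of any 1 library but Zac1 4 (adjusted p reaching 0.176) and with DESeq2 (0.0588). Etv4 missed it in the absence of EGFP 3 or of either Zac1 5 or Zac1 6 (reaching 0.18) and with both GC offsets (0.419 and 0.0855). Egr1 missed it when either EGFP 1 or EGFP 3, or either of Zac1 5 and Zac1 6, was absent (reaching 0.169) and with a mean of at least 50 reads (0.0548). Egr3, below the count minimum, had 5, 13 and 25 reads in the Zac1 libraries and 0 in each EGFP library. With 3 reads set for the EGFP group and the Zac1 reads taken as exact, the ratio of Egr3 was 12.5. Dusp6, a phosphatase that acts on ERK, was at -0.01 (SE 0.06), with 65.5, 71.2 and 71.1 CPM in the Zac1 libraries and 68.7, 67.6 and 73.5 CPM in the EGFP libraries, and is named for its role.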

How the data were processed

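The deposited file is a table of read counts: the authors gave whole reads for each gene in each of the 6 libraries. The submitters' processing notes list FastQC, STAR, HTSeq and DESeq2. Their versions, the build and the annotation: not given in the sources used here. The table is called normalized, but its whole numbers have unequal totals and median-of-ratios factors of 0.928 to 1.16, so it was treated as counts. The kit was directional per the labels' protocols, and strand use in counting is not stated. Mien1 overlaps Erbb2 and Gm19610 overlaps Ereg on the opposite strand, so reads of these pairs may not be told apart. Of 49585 Ensembl IDs, 49326 matched a GENCODE M21 name, and lengths and coordinates are those of M21.

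The test, edgeR 4.0.16 in R 4.3.3, was run on the 12130 genes whose counts averaged 10 or more (TMM scaling, quasi-likelihood F test, two-sided, Benjamini-Hochberg, threshold 0.05). CPM uses TMM-scaled totals. Intervals of log2 fold changes come from the edgeR fit and include the scatter between libraries. Exact intervals of read ratios cover counting error only. Ratios with 3 reads set for an EGFP group at 0 leave out the error of the Zac1 count. Within groups, chi-square per degree of freedom was 2.29 to 8.83 for pairs of libraries, so none was a repeat of another. Members and lists were chosen with earlier results of these data known. Named pathway genes are up to 4 past the test in each list by p, or the 2 with the smallest p where none passed. Others are said to be named for their role, and genes under the count minimum are given as reads. Neighbours of Erbb3 and promoter motifs were also chosen with results known. Alternatives were other scalings, filters and prior counts, DESeq2 1.42.0, limma 3.58.1, GC offsets, other lengths and leaving out libraries.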

Additional observations from a re-analysis of the deposited data

How the results depend on the processing

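Erbb3 and Hbegf were the 2 members past the test, both as higher in Zac1, under each of the 18 alternatives that gave a test, and 0 members were lower. The members were selected on this contrast, and Erbb3 met the count minimum only through Zac1, so this is no sign of stability. Over all genes, 378 were higher and 81 lower in Zac1. Without a filter on low counts these were 731 and 248, with a mean of at least 50 reads 190 and 51, with voom and quality weights 797 and 500, and with EGFP 1 and Zac1 4 both left out 853 and 608. Least-squares GC offsets gave 762 lower genes and moved the share of calls that were higher from 82.4 to 30.8%. With voom that share was 61.4%. Leaving out 1 library at a time gave 187 to 584 higher and 19 to 379 lower genes, with the extremes without Zac1 5 and without Zac1 4. In the pathway lists, the 6 higher calls became 12 without a filter, 12 with voom and 15 with both libraries left out. The 0 lower calls became 1 without a filter, 4 with voom, 11 with least-squares and 1 with robust GC offsets, and 4 with both libraries left out. With 1 library left out there were 1 to 12 higher and 0 to 3 lower.

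The log2 fold change of Erbb3 was 2.69 on the log2(CPM + 1) scale, 6.46 with voom, 4.98 with a prior count of 2 and 5.77 to 7.17 with 1 library left out. That of Hbegf was 0.49 with both libraries left out. With least-squares GC offsets Erbb2 was at -0.0634, Tgfa at 0.0106 and Btc at -0.0275, and with robust offsets Erbb2 was at 0.0366 and Btc at -0.0218. With the longest transcript as length, Erbb3 took 2.35% of receptors in Zac1, Erbb2 30.2% in EGFP, and Egfr 66.4% in Zac1 and 69.7% in EGFP. Hbegf then took 14.3% of ligands in Zac1 and 11.4% in EGFP, and Tgfa 39.4% in Zac1 and 39.3% in EGFP. With no length correction, Erbb3 took 1.67% in Zac1, Erbb2 18.4% in Zac1 and 17.5% in EGFP, Egfr 79.9% in Zac1 and 82.4% in EGFP, Hbegf 10.9% in Zac1, and Tgfa 46.8% in Zac1 and 46.6% in EGFP. The cause of these moves was not tested. For single pathway genes, 25 values lost the threshold, 9 gained it and 0 changed sign past it. No paired analysis was run, because the labels number the libraries in sequence across the groups and do not say whether any were prepared together. Depth limits Erbb3 in EGFP (3 reads) and Erbb4 (8 reads in Zac1), whose exact levels cannot be set.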
